A study of Mus musculus with 3 samples.

Results

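Histone genes were followed in mouse embryos across every array probe that carries a core, linker or variant histone name. Probes were taken where the gene symbol belonged to the clustered Hist1 to Hist4 genes (now H1f, H2ac, H2bc, H3c and H4c genes, with the solitary H2aw, H2bu2 and H4f16) or was H2az1 (H2afz), H2az2 (H2afv), H2ax, Macroh2a1 (H2afy), H3f3a, H3f3b or H1f0. The newer H1f names also brought in H1f7, H1f8 and H1f10, linker variants that have no Hist name. The rule gave 71 probes of 57 genes among 55681 non-control probes (22073 named genes). Of these 71 probes 63, from 51 genes, were bright enough to be tested among 31603 tested probes. The other 8 probes (H2ac1, H2ac21, H4c8, H1f3, H1f6, H1f7 and 1 of a pair of probes each for H2bc18 and H4f16) were not tested. The series compared wild-type mouse embryos with Brpf1-deficient embryos, both E8.75 and untreated, on 3 Agilent arrays of 2 colours. Each array held 1 numbered pair, with the RNA labelled wild-type in Cy3 (green) and the RNA labelled Brpf1-deficient in Cy5 (red). No array had the dyes exchanged, so dye and genotype cannot be told apart. The labels name neither the Brpf1 allele nor the strain, and give no number of embryos per RNA, so p-values measure the spread between these 3 pairs.

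A nucleosome holds pairs of the core histones H2A, H2B, H3 and H4, and the linker histone H1 binds where DNA enters and leaves it. The core histones of the clusters are made in S phase, when DNA is replicated, and their mRNAs usually end in a stem-loop in place of a poly(A) tail. Variants such as H2A.Z, macroH2A and H3.3 are also made outside S phase from polyadenylated mRNAs and mark particular regions of chromatin. Brpf1 is a scaffold of the KAT6 and KAT7 acetyltransferases, which acetylate histone H3. The RNA was amplified in a single round with an amino allyl aRNA kit from 350 ng, per the labels. How far mRNAs without a poly(A) tail were amplified was not tested. The ratios of cluster histone probes may therefore not give total histone mRNA.

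The promoters of 51 of the 57 genes were matched in RefSeq (GRCm38.p6, 250 bases before to 50 after the annotated start). Shown are those of the H2A gene of highest ratio, an H2A gene of another cluster, the brightest H2B gene, H2az1 and an H4 gene. They are examples, and differences in array ratio between the classes were not tested. Capitals mark the CCAAT box (CCAAT), the TATA box (TATAAA) and the octamer (ATTTGCAT), searched on both strands, and no marked matches overlap in these windows.
H2ac11 (chr13:22042900-22043199, minus strand): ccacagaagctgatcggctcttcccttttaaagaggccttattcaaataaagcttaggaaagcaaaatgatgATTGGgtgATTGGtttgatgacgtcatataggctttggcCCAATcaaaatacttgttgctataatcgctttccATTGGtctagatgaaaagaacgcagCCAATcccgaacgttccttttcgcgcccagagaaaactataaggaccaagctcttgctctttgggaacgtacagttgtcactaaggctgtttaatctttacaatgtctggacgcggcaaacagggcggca
H2ac20 (chr3:96220831-96221130, minus strand): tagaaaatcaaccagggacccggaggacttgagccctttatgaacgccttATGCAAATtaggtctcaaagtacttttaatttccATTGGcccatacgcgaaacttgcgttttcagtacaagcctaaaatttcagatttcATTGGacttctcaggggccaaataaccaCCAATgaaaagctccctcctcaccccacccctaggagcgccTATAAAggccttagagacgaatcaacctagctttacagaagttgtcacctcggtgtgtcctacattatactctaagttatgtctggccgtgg
H2bc14 (chr13:21721794-21722093, plus strand): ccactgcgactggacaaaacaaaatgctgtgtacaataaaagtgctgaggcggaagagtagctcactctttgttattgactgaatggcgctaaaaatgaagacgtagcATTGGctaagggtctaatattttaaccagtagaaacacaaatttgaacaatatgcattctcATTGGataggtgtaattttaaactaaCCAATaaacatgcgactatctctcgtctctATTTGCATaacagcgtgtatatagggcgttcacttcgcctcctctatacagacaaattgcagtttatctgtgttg
H2az1 (chr3:137864237-137864536, plus strand): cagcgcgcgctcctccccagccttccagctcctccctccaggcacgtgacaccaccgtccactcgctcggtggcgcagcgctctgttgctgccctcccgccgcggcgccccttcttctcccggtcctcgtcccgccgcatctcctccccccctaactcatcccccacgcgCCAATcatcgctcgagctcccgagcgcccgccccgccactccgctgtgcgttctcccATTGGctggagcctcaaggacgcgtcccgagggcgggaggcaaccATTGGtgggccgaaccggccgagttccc
H4c12 (chr13:21750504-21750803, minus strand): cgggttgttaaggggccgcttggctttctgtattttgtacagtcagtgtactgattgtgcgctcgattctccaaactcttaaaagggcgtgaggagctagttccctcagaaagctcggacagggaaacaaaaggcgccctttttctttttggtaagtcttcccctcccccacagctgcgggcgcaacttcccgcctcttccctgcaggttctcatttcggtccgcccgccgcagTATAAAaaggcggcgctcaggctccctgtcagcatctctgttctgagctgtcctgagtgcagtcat
CCAAT occurred 5 times in the H2ac11 window, 3 times each in those of H2ac20, H2bc14 and H2az1, and 0 times in that of H4c12. It was found in 13 of 13 H2A, 10 of 10 H2B and 6 of 6 H3 promoters, but in 2 of 8 H4 promoters, against 37.4% of all 32851 promoters. TATAAA was in 50% of the 52 member promoters and 13.6% of all promoters. These motif shares count promoters, while the 51 matched above counts genes. The octamer was in 7 of 13 H2A and 6 of 10 H2B promoters, in 0 of 6 H3 and 0 of 8 H4 promoters, and in 1.74% of all promoters. It was in 2 of the 7 promoters of the bright H2A genes described next. These matches describe the letters only and say nothing about binding.

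The targeted gene went against its label. Brpf1 had log2 ratios of Cy5 over Cy3 of 2.01, 1.43 and 1.06 in pairs 1, 2 and 3, a mean of 1.5 ± 0.19 (SE, n = 3, 2.83-fold, limma adjusted p = 0.0596). Its raw intensity was 12356.5, 6418 and 5168 in the channel labelled Brpf1-deficient and 1772.5, 2125 and 1537 in the channel labelled wild-type. Where the probe lies relative to a deleted part is not given in the sources used here, and whether the channels were exchanged was not tested. An exchange would turn every direction below, so all directions are those of the channels as labelled. They also run opposite to the authors' deposited table, which gives Brpf1 as -1.55. The direction of that table is not stated. It was taken as Cy3 over Cy5 from r = -0.92 across 22165 shared probes, which are not independent replicates. Probe ratios correlated across all tested probes at r = 0.394 between pairs 1 and 2, 0.318 between 1 and 3, and 0.0625 between 2 and 3.

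The bright probes of replication-dependent H2A genes had high ratios, while dimmer H2A probes did not. Of 63 tested members, 9 passed the test and were brighter in the channel labelled Brpf1-deficient, and 0 were dimmer (limma, adjusted p under 0.05). Over all tested probes 0.788% passed as higher and 0.0253% as lower. The 9 probes were 8 H2A probes of 7 genes and 1 probe of H2az1. All of them had a mean log2 intensity above 17, the brightest unit of the scale, where 37.2% of all 645 tested probes passed as higher. At or below 17, none of the 54 members passed (limma, smallest adjusted p = 0.139), although 16 were higher and 1 lower at an unadjusted p under 0.05. Of all tested probes, those above 17 included, 16.2% had such a p in either direction. That share was not split by direction or brightness. Of these 54, 22 were above 0 in all 3 pairs and 7 below, where 17.7% and 23.9% of all tested probes in that range were.

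**Figure D1:**
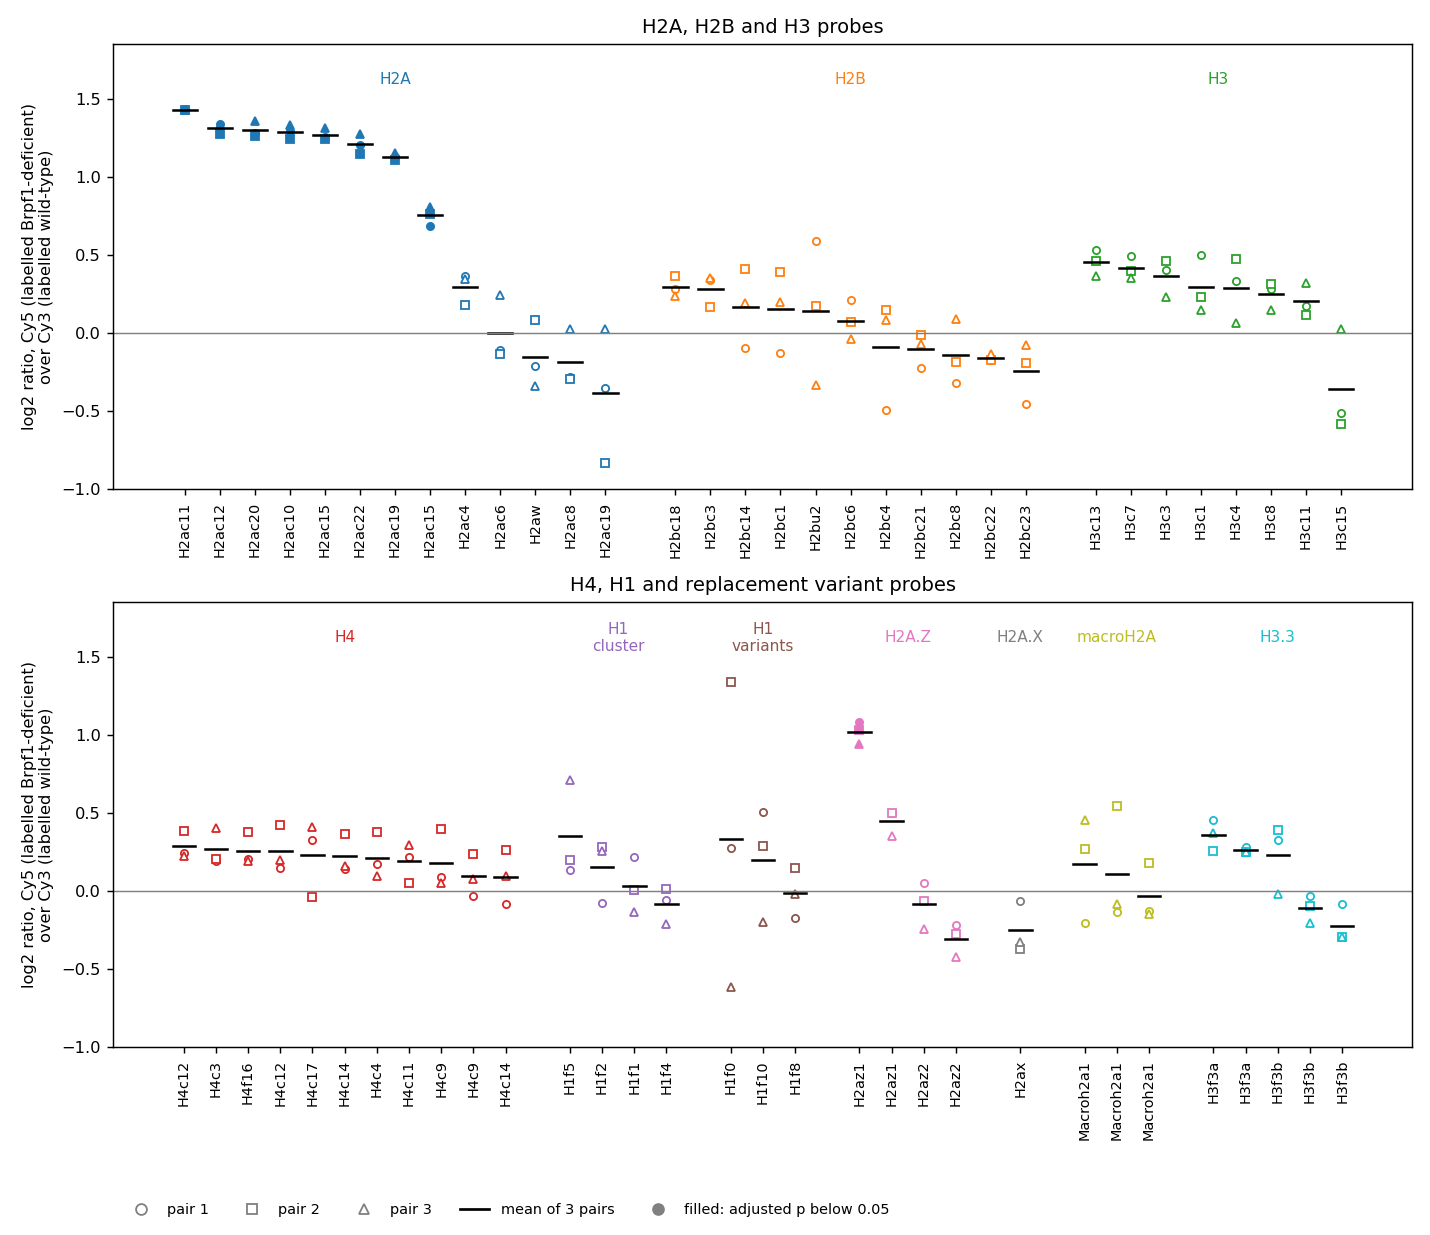
The log2 ratio of Cy5 (labelled Brpf1-deficient) over Cy3 (labelled wild-type) is drawn for each of the 63 tested probes, with 1 symbol per pair, a black line at the mean of 3 pairs and filled symbols where the limma adjusted p was under 0.05. The means of 7 bright H2A probes and 1 H2az1 probe lie above 1, and the pairs of most H3 probes lie above 0.

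H2ac11 (Hist1h2ag), a core H2A gene of the large Hist1 cluster, had the highest ratio of the members. Its log2 ratios were 1.43, 1.43 and 1.43 in the 3 pairs, a mean of 1.43 ± 0.08 (SE, n = 3, 2.70-fold, limma adjusted p = 0.0377). It ranked at place 12 of 31603 tested probes. Its raw intensity was 422142, 409324 and 431954 in Cy5 and 55059.5, 79958 and 66380 in Cy3. Raw Cy5 exceeds raw Cy3 among bright probes in general, whose medians at a mean log2 intensity above 17 were 323656 in Cy5 and 82582 in Cy3, so raw intensities do not compare the genotypes.

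The other bright H2A genes were close to it and to each other. H2ac12 (Hist1h2ah) had 1.34, 1.27 and 1.33 in the 3 pairs, a mean of 1.31 ± 0.08. H2ac20 (Hist2h2ac), from the smaller Hist2 cluster, had 1.28, 1.26 and 1.36, a mean of 1.30 ± 0.08. H2ac10 (Hist1h2af) had 1.30, 1.24 and 1.33, a mean of 1.29 ± 0.08. The differences among H2ac12, H2ac20 and H2ac10 were within 1 SE. H2ac15 (Hist1h2ak) had 1.26, 1.25 and 1.31 at 1 probe, a mean of 1.27 ± 0.08. H2ac22 (Hist1h2an) had 1.20, 1.15 and 1.28, a mean of 1.21 ± 0.08. H2ac19 (Hist2h2aa2) had 1.13, 1.11 and 1.15, a mean of 1.13 ± 0.08. In each of these probes all 3 pairs were above 0 (limma adjusted p = 0.0377 for each). Ratios above 0 were usual at a mean log2 intensity above 17. There the lower quartile of all 645 tested probes was 0.50 in the mean of pairs.

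The remaining bright H2A probe, a second one for H2ac15, had 0.69, 0.76 and 0.81, a mean of 0.75 ± 0.08 (limma adjusted p = 0.0443). It lay 0.52 below the other H2ac15 probe on the log2 scale. The authors' deposited table lists more than 1 histone gene for 5 of the 8 bright H2A probes. The H2ac12 probe, for example, is also assigned to H2ac13, H2ac24 and H2ac7, and the H2ac10 probe to H2ac4. The H2A genes are nearly identical in sequence, so these 8 probes may report shared transcripts and are not 8 independent measurements.

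**Figure D2:**
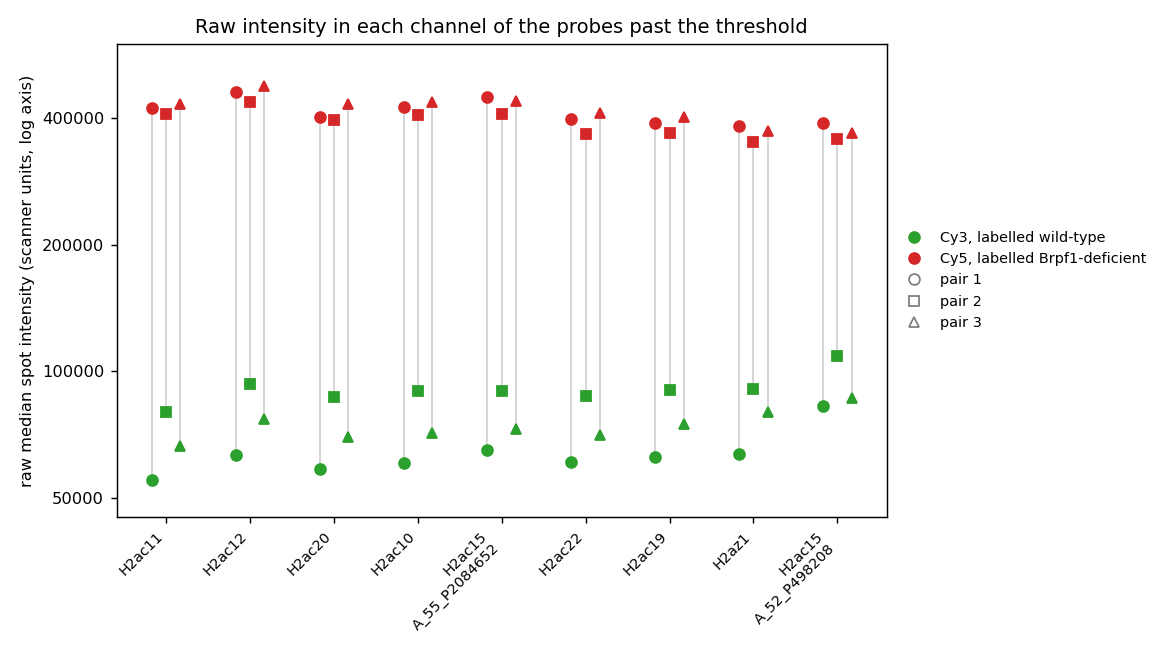
Raw median spot intensity in scanner units, on a log axis, is drawn for the 9 probes past the threshold, with green for Cy3 (labelled wild-type), red for Cy5 (labelled Brpf1-deficient) and 1 symbol per pair. In H2ac11 the Cy5 values of 409324 to 431954 lie above the Cy3 values of 55059.5 to 79958, as they do among bright probes in general (medians of 323656 and 82582 above a mean log2 intensity of 17).

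The size of the H2A ratios moved with brightness and with the smoothing of the normalization. The median log2 ratio of the 8 bright H2A probes was 1.27, 1.24 and 1.32 in the 3 pairs, while the median of all 645 tested probes above 17 was 0.87, 0.68 and 0.69 and that of all 31603 tested probes was -0.02 in the mean of pairs. Measured from the median of all 645 tested probes above 17, the 8 bright H2A probes were 0.02 to 0.69 higher, with a median of 0.54. They ranked 50 to 217 by intensity among all tested probes, so they lay at the brighter side of that range. A trend with brightness inside the range was not removed from these differences. H2ac11 lay at percentile 98.6 of those 645 probes, and the second H2ac15 probe at 51.8. With a loess span of 0.02 in place of 0.3, which follows the trend at the bright end more closely, the median of all probes above 17 became 0.01 and that of the bright H2A probes 0.39. The latter was 0.27, 0.41 and 0.54 in the 3 pairs, H2ac11 had 0.64, and the second H2ac15 probe turned to -0.19. With that span no member and no other probe passed (limma, smallest adjusted p = 0.318, against 4467 probes at an unadjusted p under 0.05).

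The calls also ended without any one of the pairs, where 0 of all tested probes passed, but the ratios did not move with them. The median of the bright H2A probes was 1.28, 1.30 and 1.26 without pairs 1, 2 and 3. The smallest adjusted p of a member (limma) was 0.4 without pair 1, 0.0525 without pair 2 and 0.183 without pair 3. No spot of any probe was marked as saturated.

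**Figure D3:**
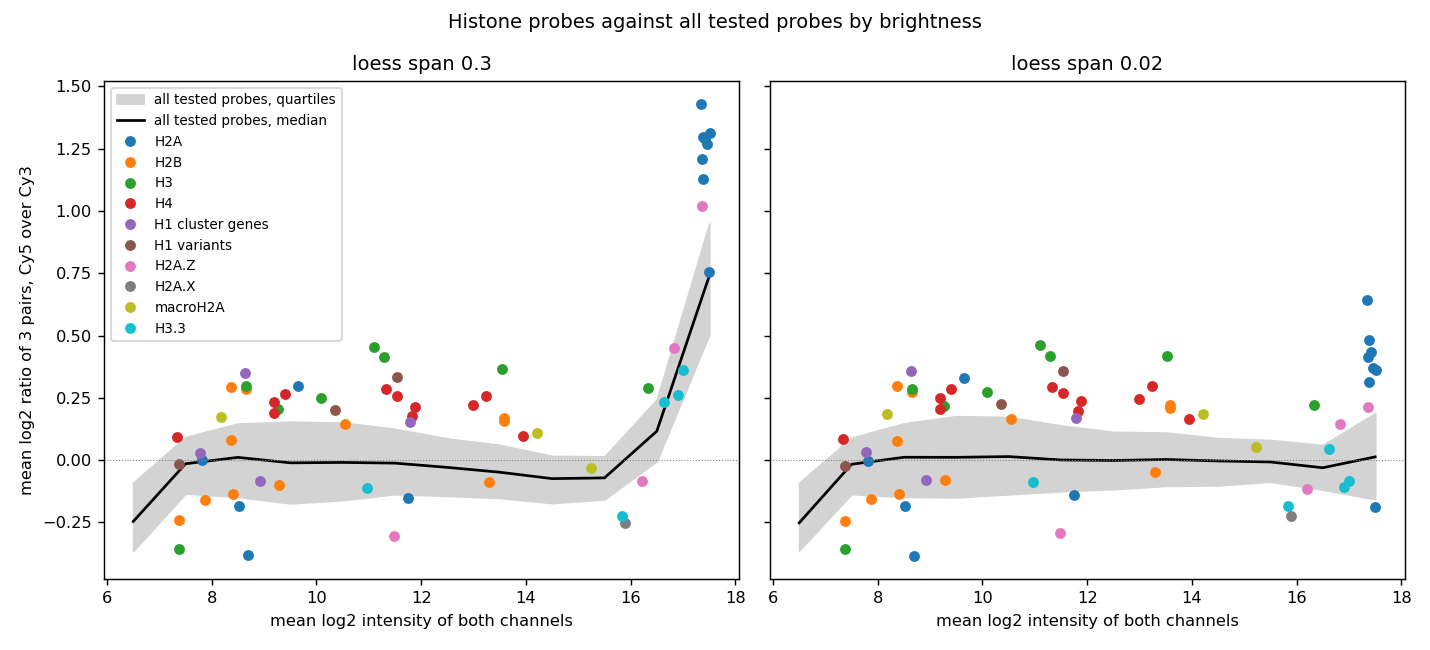
Mean log2 ratio over 3 pairs is plotted against mean log2 intensity for the 63 tested histone probes (coloured by class), over the median (line) and quartiles (grey) of all tested probes in 1-unit bins of intensity, with a loess span of 0.3 on the left and 0.02 on the right. The median of all probes above 17 is 0.74 on the left and 0.01 on the right, and the bright H2A probes lie above it in both panels except the second H2ac15 probe, which is at -0.19 on the right.

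Dimmer H2A probes had lower ratios. None of the 5 tested H2A probes at or below 17 passed, and their medians were -0.21, -0.14 and 0.03 in the 3 pairs. H2ac4 (Hist1h2ab) had the highest of them, with 0.37, 0.18 and 0.34 and a mean of 0.30 ± 0.09 (SE, limma adjusted p = 0.241). A dim probe of H2ac19 had -0.35, -0.83 and 0.03, a mean of -0.38 ± 0.18, and so lay 1.51 below the bright probe of the same gene. H2ac8 (-0.18), H2aw (-0.15), a solitary H2A gene, and H2ac6 (0.00) had mean log2 ratios near or below 0.

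H2B, the partner of H2A in the nucleosome, had class medians close to 0. Of 11 tested H2B probes none passed, 6 were above 0 and 5 below in the mean, and 2 were above 0 in all 3 pairs, against 19.3% of all tested probes. The class medians were -0.13, 0.15 and 0.08 in the 3 pairs. H2bc18 (Hist2h2bb) had the highest mean, with 0.28, 0.37 and 0.24 and a mean of 0.30 ± 0.08 (limma adjusted p = 0.23). H2bc14 (Hist1h2bm), the brightest H2B probe, had -0.09, 0.41 and 0.19, a mean of 0.17 ± 0.12. The probe of H2bc1, known as a testis H2B gene, had -0.13, 0.39 and 0.20. These ratios and its mean log2 intensity (13.58) were close to those of the H2bc14 probe (13.58). Whether the H2bc1 probe reports transcripts of other H2B genes was not tested. The authors' deposited table lists the H2bc14 probe for 4 H2B genes. H2bc4 had -0.49, 0.15 and 0.08, a mean of -0.09 ± 0.15.

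At the low end, H2bc23 (Hist1h2bq) had a measured mean of -0.24 ± 0.10. Its Cy5 spots were not well above background in any pair, so it was tested on the strength of Cy3 alone and its Cy5 level has only a bound. With the scanner software's processed signals, centred on each array's median, its ratio was -1.18.

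H2A and H2B genes often lie side by side and are read from a shared promoter region. Taken by gene order alone, 5 H2A and H2B neighbours had both partners tested. The bright H2ac22 had 1.21 and H2bc22 -0.16, and the bright H2ac20 had 1.30 and H2bc21 -0.10. The remaining neighbours, H2ac4 and H2bc3 (0.30 and 0.28), H2ac8 and H2bc8 (-0.18 and -0.14), and H2ac6 and H2bc4 (0.00 and -0.09) lay within 0.1 of each other. For H2ac22 and H2ac20 the H2A probe had a mean log2 intensity above 17, and their H2B partners had one of 7.87 (H2bc22) or 9.28 (H2bc21), so the partners were measured at different brightness. H2ac6 (7.82) and H2bc4 (13.29) also differed in brightness.

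H3 probes had low but repeated ratios above 0. None of the 8 tested H3 probes passed, and 7 of them were above 0 in all 3 pairs, where 17.7% of all tested probes at or below 17 were. The class medians were 0.37, 0.36 and 0.19 in the 3 pairs and 0.38, 0.39 and 0.22 with a span of 0.02, where 7 of 8 were again above 0 in all 3 pairs (19.8% of all tested probes). H3c13 (Hist2h3b) had 0.53, 0.46 and 0.37, a mean of 0.45 ± 0.08 (SE, limma adjusted p = 0.139). Its raw intensity was 3563, 2857 and 2859 in Cy5 and 1465, 1832 and 1393 in Cy3, far from the bright end. H3c7 (Hist1h3f) had 0.49, 0.40 and 0.35, a mean of 0.41 ± 0.08, and H3c3 (Hist1h3c) had 0.40, 0.46 and 0.23, a mean of 0.36 ± 0.09. H3c4 (Hist1h3d), the brightest H3 probe, had 0.33, 0.48 and 0.06, a mean of 0.29 ± 0.11, or 0.22 with a span of 0.02. The authors' deposited table lists this probe for H3c2, H3c6 and H3c11 as well, so the H3 probes are not all of separate genes. H3c1, H3c8 and H3c11 had means of 0.30, 0.25 and 0.21.

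The exception was H3c15 (Hist2h3c2), which had -0.51, -0.58 and 0.02 and a mean of -0.36 ± 0.14 (limma adjusted p = 0.323). In Cy5 this probe was not well above background in any pair, so it too was tested on the strength of Cy3 alone. Its ratio was -1.17 with the centred processed signals. The H3c13 probe is listed by the authors for H3c15 as well, so these 2 probes of opposite sign are not cleanly of separate genes.

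**Figure D4:**
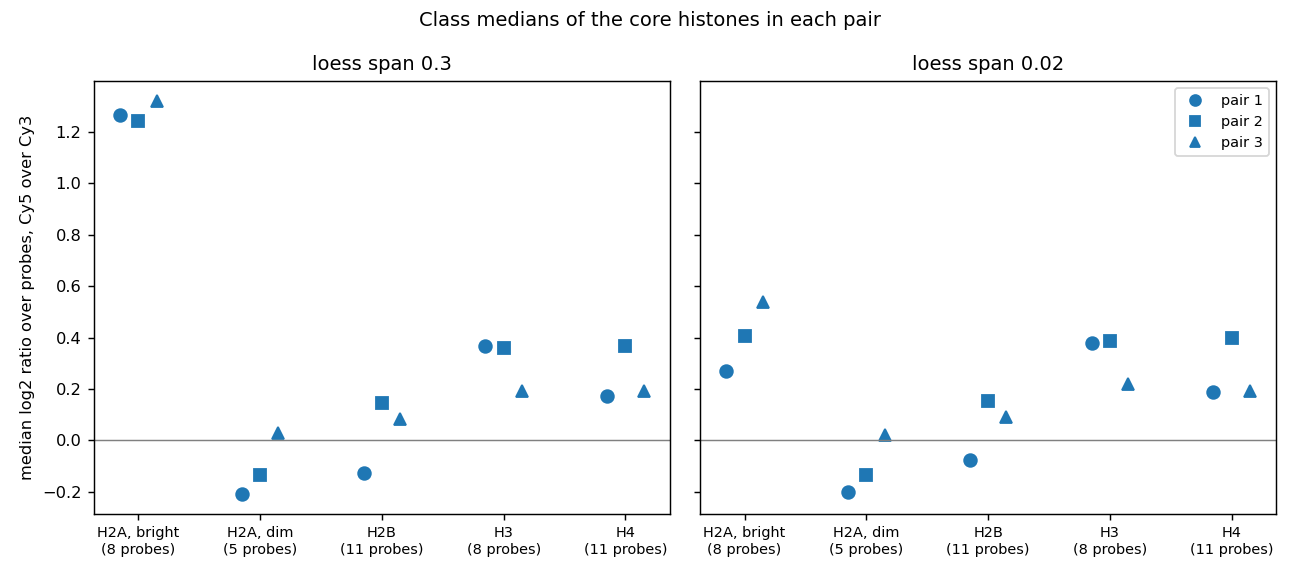
The median log2 ratio over the tested probes of each core histone class is drawn for each pair, with a loess span of 0.3 on the left and 0.02 on the right; bright and dim H2A probes are those above and at or below a mean log2 intensity of 17. The medians of H3 and H4 lie above 0 in all 3 pairs with both spans, while the bright H2A medians of 1.24 to 1.32 become 0.27 to 0.54.

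H4 probes also had low ratios above 0. All 11 tested H4 probes were above 0 in the mean of the pairs (0.09 to 0.29), 8 were so in each of the 3 pairs, and none passed the test (limma, smallest adjusted p = 0.242). Of all tested probes 46.7% were above 0 in the mean, and of those at or below 17, 17.7% were above 0 in all 3 pairs. The class medians were 0.17, 0.37 and 0.19, so pair 2 was the highest. H4c12 (Hist1h4k) had 0.24, 0.39 and 0.23 at 1 probe, a mean of 0.29 ± 0.08, and 0.15, 0.42 and 0.20 at the other, a mean of 0.26 ± 0.09. H4c9 (Hist1h4i), the brightest H4 gene, had means of 0.10 ± 0.09 and 0.18 ± 0.10, and H4c14 (Hist2h4) had 0.22 ± 0.09 and 0.09 ± 0.10. In Cy5 the dimmer H4c14 probe was not well above background in any pair. H4c3, H4f16, H4c17, H4c4 and H4c11 had means of 0.19 to 0.27. The authors' table lists several histone genes for 5 of the H4 probes, so these probes too share targets. With the scanner's processed signals, centred, all 11 remained above 0, with a median of 0.28, and 7 of 8 H3 probes did, with a median of 0.33.

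The linker histones of the cluster gave no call. H1f5 (Hist1h1b) had 0.14, 0.20 and 0.71, a mean of 0.35 ± 0.14 (SE, limma adjusted p = 0.319), and was above 0 in every pair. H1f2 (Hist1h1c), the brightest, had -0.08, 0.28 and 0.25, a mean of 0.15 ± 0.11, while H1f4 (Hist1h1e) had -0.08 ± 0.09 and H1f1 0.03 ± 0.10. H1f0, a linker variant known for its accumulation in cells that leave the cycle, had the widest spread of all members. Its log2 ratios were 0.28, 1.34 and -0.61, and its raw intensity was 3111, 6713 and 3147.5 in Cy5 and 1524, 2377 and 2993 in Cy3. Pair 2 was high and pair 3 below 0, so the mean of 0.33 ± 0.37 was within its error (limma adjusted p = 0.662). H1f10 (H1fx) had 0.51, 0.29 and -0.20, a mean of 0.20 ± 0.15, and H1f8, an oocyte linker histone, had -0.02 ± 0.10 with its Cy5 spots not well above background in any pair.

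Of the replacement variants, H2A.Z was divided between its genes. H2az1, which encodes H2A.Z.1, had 1.08, 1.03 and 0.94 at its brighter probe, a mean of 1.02 ± 0.08 (SE, n = 3, 2.03-fold, limma adjusted p = 0.0377). The raw intensity of this probe was 383549, 351508 and 372384 in Cy5 and 63544.5, 90846 and 79848 in Cy3. It lay 0.28 above the median of 0.74 of all tested probes above 17, at percentile 80.2 of them. With a span of 0.02 its mean was 0.21, and with the centred processed signals 0.40. The other H2az1 probe had 0.50, 0.50 and 0.35, a mean of 0.45 ± 0.08 (limma adjusted p = 0.143). It was at 0.15 with a span of 0.02 and at 0.01 with the centred processed signals.

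H2az2, the gene of the near-identical H2A.Z.2, had means on the other side of 0. The dimmer probe had -0.22, -0.28 and -0.42, a mean of -0.30 ± 0.09 (limma adjusted p = 0.239), and was the only member below 0 at an unadjusted p under 0.05. The brighter probe had 0.05, -0.06 and -0.24, a mean of -0.08 ± 0.09. The difference between the genes was not tested, and their probes lay at different brightness. Mean log2 intensities were 17.37 and 16.83 for H2az1, and 16.21 and 11.49 for H2az2.

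H2ax, whose product is phosphorylated at DNA breaks, had -0.06, -0.37 and -0.33, a mean of -0.25 ± 0.10 (SE, limma adjusted p = 0.312). Macroh2a1, which encodes a large H2A variant of silent chromatin, had means of -0.03 ± 0.10, 0.11 ± 0.16 and 0.17 ± 0.15 at its 3 probes. Pairs lay on both sides of 0 in each of them.

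The H3.3 genes gave no call either. H3f3a had 0.45, 0.26 and 0.37 at 1 probe and 0.28, 0.25 and 0.25 at the other, with means of 0.36 ± 0.09 and 0.26 ± 0.08. Both probes are among the brighter ones, and both turned below 0 with a span of 0.02 (-0.08 and -0.11). H3f3b, which encodes the same protein, had means of 0.23 ± 0.11, -0.22 ± 0.09 and -0.11 ± 0.08 at its 3 probes. Its 2 probes below 0 were so in all 3 pairs, as were 23.4% of all tested probes. With a span of 0.02, 4 of the 5 H3.3 probes were below 0 in all 3 pairs (21.2% of all tested probes).

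Genes that work with histones were taken as companion lists, each gene by its brightest tested probe. Of 22 genes of histone mRNA processing and transcription 20 were tested and none passed, with a median of -0.05. Lsm11, part of the U7 particle that cuts histone mRNAs, had 0.32 ± 0.10 (SE, limma adjusted p = 0.259), and Zfp473, which acts with that particle, had -0.34 ± 0.12. Ccne1, the cyclin of entry into S phase, had 0.21 ± 0.08 and Cpsf3, the cutting enzyme of histone mRNA ends, -0.16 ± 0.08. None of 29 tested histone chaperones and remodellers passed at that probe, with a median of 0.02, and 1 of their 54 probes passed, as higher. Npm1, a histone-binding nucleolar protein, had 0.66 ± 0.09 (limma adjusted p = 0.0637), or -0.22 with a span of 0.02. Its 4 other tested probes ran from -0.03 to 1.20. The highest of them, at 1.20 ± 0.09 (limma adjusted p = 0.0377), was the chaperone probe that passed, also lay above 17, and had 0.59 with a span of 0.02. Hira, the H3.3 chaperone, had 0.45 ± 0.13 and 0.17 at a second probe. Atrx, another H3.3 loader, had -0.39 ± 0.09, with its other probes at 0.01 and 0.34, so its probes lay on both sides of 0. Ep400, an H2A.Z remodeller, had -0.34 ± 0.12 and -0.15 at a second probe.

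S phase genes, made when the cluster histones are, had ratios mostly near or slightly below 0. Of 23 tested genes none passed, 7 were above 0 in the mean, the median was -0.09 (0.0045 with centring and no loess), 2 were above 0 in all 3 pairs and 12 below, where 19.3% and 23.4% of all tested probes were. Tk1, a thymidine kinase, had -0.28, -0.14 and -0.23, a mean of -0.22 ± 0.08 (SE, limma adjusted p = 0.304). Uhrf1, which maintains DNA methylation, had -0.34 ± 0.14, with 0.57 at a second probe. Prim1, a primase subunit, had -0.19 ± 0.08 and Cdc6, a licensing factor, -0.19 ± 0.08.

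Among 4 tested histone variants outside the rule, H2aj, an H2A variant close to core H2A, was brighter in Cy5. It had 1.24, 1.24 and 1.21, a mean of 1.23 ± 0.08 (limma adjusted p = 0.0377), or 0.38 with a span of 0.02, and its second probe had 0.05. Macroh2a2 (-0.15), the centromere histone Cenpa (0.09) and Macroh2a3 (0.06) did not pass.

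Defining markers of the labelled tissue were present, with 11 of 12 embryo markers tested and En1 not well above background in either channel. None passed, and the list stood at medians of 0.11, -0.02 and -0.20 in the 3 pairs. Yolk sac and visceral endoderm markers were above 0 in the mean in 8 of 8 genes, where 46.7% of all tested probes were. Their medians were 0.18, 0.56 and 0.54, and none passed (limma, smallest adjusted p = 0.0789). Of these 8 genes, 2 had a mean log2 intensity above 17. The list median was 0.54 in the mean of pairs and 0.34 with a span of 0.02. Primitive erythroid markers had medians of -0.49, 0.93 and 0.52 over 6 genes. Of these, 3 lay above 17, and the list median of 0.27 in the mean of pairs was -0.01 with a span of 0.02. The list taken for decidua and uterus (Prl8a2, Dcn, Des, Pgr, Cryab and Hand2) had -0.36, -0.60 and 0.43 over 6 genes. Within it Prl8a2 had -0.74, -3.55 and 0.60. Whether the embryo itself expresses genes of this list was not tested. Trophoblast markers had -0.49, -0.43 and 0.44 over 4 of 5 genes, with Tpbpa not well above background. The part of these cell types in the histone ratios was not tested, and in whole embryos fewer cells of a type and less RNA per cell cannot be told apart.

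Of the 71 member probes, 62 are listed by the authors' deposited table. Of the 57 that were also tested here, 56 have the opposite sign. The direction of that table was inferred from the same arrays, so these signs are no independent check. H2ac11 is given there as -1.40 with an adjusted p of 0.264, and the adjusted p-values of the listed members run from 0.264 to 0.734, so none passes at 0.05 in the authors' deposited table.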

How the data were processed

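Feature Extraction 10.7.3.1 read the scans, and the 3 arrays lay on 1 slide with 1 scan time, per the file headers. The intensity values used are deposited median spot and background brightness on a linear scale. The scanner files' processed signals and their log10 ratios are background-subtracted and dye-normalized, per the file headers. The authors deposited a table of log2 ratios, p-values and 2 scores. The submitters' processing notes name limma, with settings not given in the sources used here. Here, normexp (offset 50) corrected the background, and loess (span 0.3) normalized the log2 ratios (Cy5 over Cy3) of each array. Median signals replaced the planned mean signals. Spots of a probe were averaged. Probes whose spots (0.5 or more) exceeded background clearly in 1 channel on 2 of 3 arrays were tested with limma 3.58.1 in R 4.3.3 (lmFit, eBayes, two-sided, Benjamini-Hochberg over 31603 probes, threshold 0.05, checked on simulated data). Each SE is limma's moderated standard error (n = 3). The number of arrays limits the precision. Of 29123 probes with a RefSeq accession, 27656 matched 1 gene of the GRCm38.p6 table, used for names and gene order. Of the members, 69 were found by accession and 2 by the authors' name.

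Members, lists and tests were chosen with earlier results of these data known. Named with values were all variant genes, in each class the 3 brightest genes and those of highest and lowest ratio, members past the threshold, genes with probes on both sides of 0, up to 4 genes of each companion list by unadjusted p, and Brpf1. Other members were added to give the class ranges. Alternatives were the span, centring without loess, no background subtraction, processed signals, scaling between arrays, the filters, 1 probe per gene, saturated spots, an intensity trend in the variance, each pair left out, and the sign turned.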

Additional observations from a re-analysis of the deposited data

How the results depend on the processing

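The 9 calls became 0 with a loess span of 0.02, with the scanner's processed signals as given or centred, and with scaling between arrays. They also became 0 without replicate 1, 2 or 3. The members' higher calls were 11 with centring alone and no loess and 8 with 1 probe per gene. They were 9 in the remaining runs with the sign as labelled, and calls of lower probes stayed at 0. The ratios did not fall with scaling (bright H2A median 1.30) or without a replicate (1.26 to 1.30). With the sign turned (Cy3 over Cy5) the 9 calls became 0 higher and 9 lower. For other values turning the sign changes only the sign and was not run separately. The median of the bright H2A probes, 1.28, was 0.39 with a span of 0.02, 1.87 with centring alone and no loess, 0.61 with the processed signals and 0.64 with these centred. The second H2ac15 probe turned from 0.75 to -0.19 with a span of 0.02. The medians of H2B (0.08), H3 (0.29) and H4 (0.22) moved by less than the spread between pairs in each alternative run. Of 43 named probes under 14 alternatives, 12 changed sign at least once, in 22 of 587 combinations, and 1 of these was a called probe. Over all probes, 249 higher and 8 lower calls became 672 and 20 with centring alone, 364 and 28 with no filter, 401 and 24 with an intensity trend, 292 and 22 with 1 probe per gene, and 0 with the settings that ended the members' calls. The causes were not tested. The test is itself paired, since each ratio compares the 2 samples of 1 array.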
